A study of Mus musculus with 40 samples.

Results

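Traj50, Traj49, Traj48, Traj47, Traj45, Traj44, Traj43 and Traj42 are 8 neighbouring joining (J) segments in the 5′ portion of the mouse T cell receptor alpha (Tcra) J array. The tables list them as TRAJ50, TRAJ49, TRAJ48, TRAJ47, TRAJ45, TRAJ44, TRAJ43 and TRAJ42. They were taken by name, with every V segment they were joined to, and are 8 of the 43 Traj segments listed in the Tcra tables. In the RefSeq annotation of GRCm38.p6, the assembly that mm10 is built on, they run along chromosome 14 from Traj50 (54167590 to 54167652) to Traj42 (54175773 to 54175836), a span of 8247 bases. Traj46, which is annotated between Traj47 and Traj45, was not analysed here.

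The study removed a CTCF binding site at the Tcra enhancer Ea, named EACBE in the labels. CTCF is a DNA-binding protein at which chromatin loops are anchored. Receptor transcripts of thymocytes were copied by 5′ RACE, a method that reads whichever V segment a transcript carries without needing a primer for each, and counted by V and J segment. Wild-type (EACBE+/+) and EACBE-/- libraries were both from thymus of C57BL/6 mice aged 4 to 8 weeks, with 2 libraries each.

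In the thymus, a developing T cell cuts and joins 1 Trav and 1 Traj segment of each Tcra gene it assembles. The J segment encodes the end of the third complementarity-determining region, which contacts the antigen, and the stretch that leads into the constant region. First joins are known to use mainly 5′ Traj segments, where the TEA promoter at the head of the array and a promoter at Traj49 are active. Later rounds on the same chromosome remove an earlier join and connect a Trav segment farther out to a Traj segment farther 3′, so the Traj segments in a repertoire reflect where this progression ended.

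Total counts were 10694 and 172388 in wild type, replicates 1 and 2, and 19085 and 163953 in EACBE-/-. Joins to the 8 segments made up 2041, 31966, 4824 and 40089 of these counts. Replicate 2 was the deeper library in both genotypes, and its tables alone listed 5 Trdv segments, which made up 3.47% of joins to the 8 segments in wild type and 2.89% in EACBE-/-. The sources used here do not give whether reads or distinct receptors were counted, so intervals cover counting error only. The labels name no separate mice behind the replicates, so p-values below reflect spread between libraries that may be technical. The tables hold receptor segments alone, so neither the deletion nor the labelled cell type could be checked in them.

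The 8 segments together were used more in EACBE-/- thymus than in wild type in these libraries. They took 19.1% and 18.5% of all counts in the wild-type libraries and 25.3% and 24.5% in the EACBE-/- libraries, so both EACBE-/- libraries lay above both wild-type ones. The 95% Wilson intervals were 18.4 to 19.8% and 18.4 to 18.7% in wild type, and 24.7 to 25.9% and 24.2 to 24.7% in EACBE-/-. The means were 18.8% ± 0.384 and 24.9% ± 0.583 (SD, n = 2 each), a difference of 6.05 percentage points or 1.32-fold. For a single value in 2 and 2 libraries, the smallest p that an exact two-sided permutation can give is 0.333, so no such test could pass.

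All shares of 1 library sum to a fixed total. Traj21 to Traj2, at the 3′ end, took 24.0% and 29.6% of wild-type counts against 14.6% and 16.8% of EACBE-/- counts, and a fall there raises the other shares by construction. As a share of the counts outside Traj21 to Traj1, the 8 segments still took 25.1% and 26.3% in wild type against 29.6% and 29.4% in EACBE-/-, a difference of 3.77 points between groups that did not overlap. The difference was smaller on this scale and in the same direction.

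Set against their neighbours, the 8 segments gave a mixed picture. Counts of the 8 divided by counts of Traj58 to Traj52, the listed segments on their V side, were 1.86 and 1.41 in wild type against 2.37 and 1.74 in EACBE-/-, so the groups overlapped. The log2 of this ratio was 0.33 higher in EACBE-/-, but 0.13 higher without wild-type replicate 2 and 0.10 higher without EACBE-/- replicate 1. The difference was larger than 0.33 without wild-type replicate 1 or without EACBE-/- replicate 2. Divided by counts of Traj40 to Traj32, the segments just 3′ of them, the values were 0.899 and 1.03 in wild type against 1.02 and 1.08 in EACBE-/-, again with overlap. Divided by counts of Traj31 to Traj22, they were 0.750 and 0.898 in wild type against 1.02 and 1.11 in EACBE-/-, without overlap. By replicate number, the ratio to each of these 3 lists was higher in EACBE-/- for number 1 and for number 2, though the labels do not pair the libraries.

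All 8 segments had both EACBE-/- libraries above both wild-type ones. The background for this pattern was high, at 18 of the 43 Traj segments, or 41.9%. Folds of the mean shares ran from 1.15 for Traj42 to 1.68 for Traj43, with a median of 1.30, against a median of 1.02 over all 43. In edgeR's quasi-likelihood test over the 43 segments, 3 of the 8 rose (Traj43, Traj44 and Traj47), none fell and 5 did not pass. Over all 43, 12 were called (27.9%), 4 of them higher (9.3%) and 8 lower (18.6%). The median log2 change was 0.37 over the 8 and 0.04 over all 43.

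Traj43 and Traj44 had the highest log2 changes of the 8, and which of them was higher depended on the libraries and scaling used. Traj43 took 2.45% and 2.52% of wild-type counts against 4.06% and 4.29% of EACBE-/- counts. Its libraries agreed closely within each genotype, and the gap between genotypes was several times that spread. Its log2 change was 0.75 (SE 0.104, adjusted p = 0.0149 in edgeR), and it was called whichever library was left out. It went from 21st to 3rd in use among all 43 segments.

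Traj44, its neighbour on the V side, took 1.37% and 1.35% in wild type against 2.49% and 2.04% in EACBE-/-. It was the least used of the 8 in wild type and the one with the widest spread between EACBE-/- libraries. The log2 change was 0.73 (SE 0.145, adjusted p = 0.0212 in edgeR), and the call was lost without wild-type replicate 2 or EACBE-/- replicate 1. Traj47 took 1.49% and 1.41% in wild type against 2.05% and 2.00% in EACBE-/-, with no overlap and little spread. Its log2 change of 0.49 (SE 0.114, adjusted p = 0.0302 in edgeR) lost its call when any 1 of the 4 libraries was left out.

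The other 5 segments did not pass. Traj50 took 1.86% and 1.72% in wild type against 2.56% and 2.23% in EACBE-/-. Its log2 change was 0.42, at adjusted p = 0.0636 in edgeR. Traj45 took 2.65% and 2.60% against 3.36% and 3.20%, or 0.32 on the log2 scale (adjusted p = 0.0662, edgeR). Traj48 took 2.52% and 2.24% against 2.99% and 2.91%, also 0.32 on the log2 scale (adjusted p = 0.0894, edgeR). These 3 segments were near the threshold, with fold changes of their mean shares from 1.24 to 1.34.

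The smallest differences were those of Traj49 and Traj42, which were the most used of the 8 in wild type. Traj49, near the second promoter named above, took 3.30% and 3.56% in wild type against 3.88% and 4.07% in EACBE-/-, with a log2 change of 0.21 (SE 0.111, adjusted p = 0.217 in edgeR). Traj42, the most 3′ of the 8, took 3.45% and 3.15% in wild type against 3.87% and 3.70% in EACBE-/-, with a log2 change of 0.20 (SE 0.112, adjusted p = 0.222 in edgeR). For both, the gap between the nearest libraries of the 2 genotypes was about the size of the spread within one of them. Outside Traj21 to Traj1, Traj42 took 4.54% and 4.47% in wild type against 4.53% and 4.45% in EACBE-/-, and Traj49 took 4.34% and 5.06% against 4.55% and 4.90%. These were the 2 segments whose groups overlapped on that scale, on which the log2 change of Traj42 was -0.00324. The other 6 remained higher without overlap, against a background of 10 of 29 segments (34.5%).

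**Figure D1:**
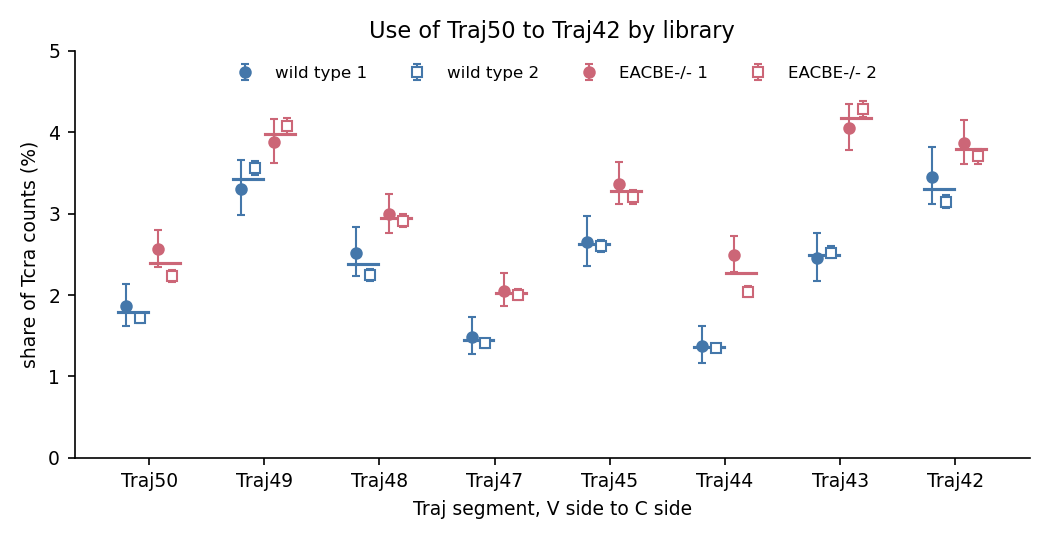
Share of all Tcra counts (%) taken by each of the 8 Traj segments, in V-side to C-side order. Points are the 4 libraries with 95% Wilson intervals (counting error only) and short bars are genotype means; the EACBE-/- points lie above the wild-type points for every segment, most widely for Traj43 (4.06% and 4.29% against 2.45% and 2.52%).

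Scaling changed which segments passed. With library sizes taken outside Traj21 to Traj1, Traj43 alone of the 8 was called, among 2 segments higher (4.65%) and 7 lower over all 43, and the median over all 43 shifted to -0.17. With library sizes taken over Traj58 to Traj52, none of the 8 was called in edgeR, 1 of them had an unadjusted p below 0.05, and the split over all 43 was 0 higher and 8 lower. The log2 changes themselves were then 0.67 for Traj43, 0.69 for Traj44 and 0.42 for Traj47, with a median of 0.31 over the 8. TMM factors and DESeq2 both called Traj43, Traj44 and Traj47, each among 5 segments higher over all 43 (11.6%).

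Within the array the 8 segments were not alone in being higher. Over Traj40 to Traj32, 1 of 8 segments was called higher (Traj38) and none lower, with a median log2 change of 0.36, close to that of the 8. Over Traj58 to Traj52, none of 5 was called and the median was 0.04, and over Traj31 to Traj22 none of 8 was called and the median was 0.01. In both lists 0 were called by DESeq2, which called 2 over Traj40 to Traj32 and 3 over the 8 segments described here. Over all 43, DESeq2 called 5 higher (11.6%). Over Traj21 to Traj2, 8 of 14 were called lower and the median was -0.80. Whether the 8 segments changed more than either adjacent list was not tested segment by segment. The ratios to the adjacent lists overlapped between genotypes and were higher in EACBE-/- within each replicate number.

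**Figure D2:**
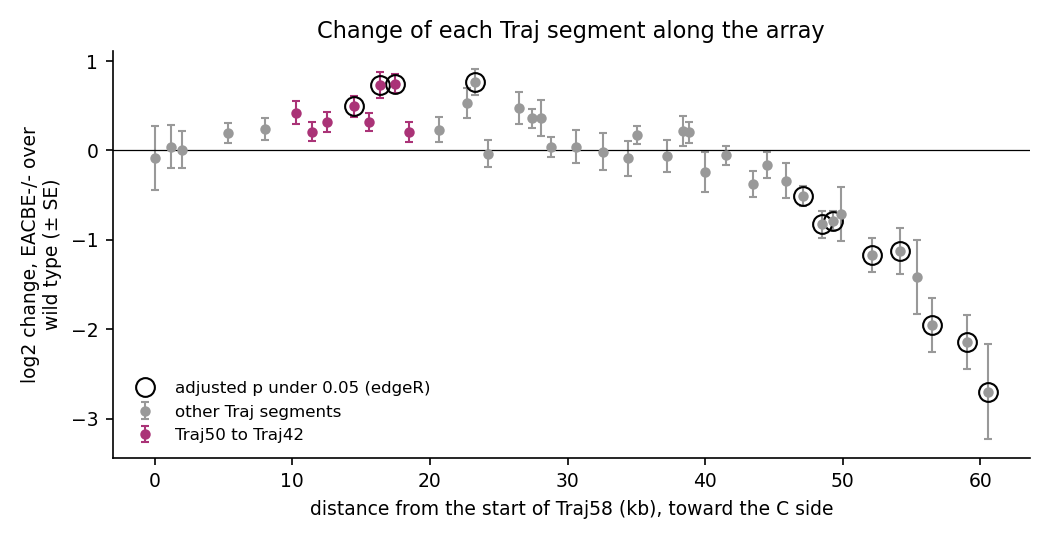
Log2 change of EACBE-/- over wild type (edgeR, ± SE) for all 43 Traj segments against distance from the start of Traj58 (kb). The 8 segments (purple) lie between 0.20 and 0.75, and circles mark adjusted p under 0.05, which Traj47, Traj44 and Traj43 reached among them.

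The order of the 8 changed at its head and its foot. A count is 1 joined transcript or read whatever the segment, and the segments are of like length (55 to 64 bases), so shares were compared between segments as they are. In wild type the order was Traj49, Traj42, Traj45, Traj43, Traj48, Traj50, Traj47 and Traj44, and Traj49 overlapped Traj42 and Traj43 overlapped Traj48. In EACBE-/- it was Traj43, Traj49, Traj42, Traj45, Traj48, Traj50, Traj44 and Traj47. There Traj43 overlapped Traj49, Traj50 overlapped Traj44 and Traj44 overlapped Traj47. Each other neighbouring pair was apart in both libraries.

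Use within the set was also redistributed. Of joins to the 8 segments, Traj43 made up 12.8% and 13.6% in wild type against 16.0% and 17.5% in EACBE-/-. Traj44 made up 7.20% and 7.27% in wild type against 9.87% and 8.35% in EACBE-/-. Traj49 made up 17.3% and 19.2% in wild type against 15.4% and 16.7% in EACBE-/-, and Traj42 made up 18.1% and 17.0% against 15.3% and 15.1%. None of these 4 segments overlapped between genotypes. Traj47 was also higher, and Traj48 and Traj45 lower, without overlap, and Traj50 alone overlapped. These shares have a fixed total, so a rise of some segments lowers the others by construction. In the array, Traj43 lies between Traj44 and Traj42.

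The V partners of the 8 segments were mostly proximal. The 130 annotated Trav genes were divided in chromosome order into a distal list of 44, a central list of 43 and a proximal list of 43, the last being nearest the J array, of which 37, 35 and 33 segments were listed in all 4 tables. Proximal Trav segments made up 65.2% and 65.8% of joins to the 8 in wild type against 57.0% and 64.9% in EACBE-/-. Distal segments made up 20.8% and 19.1% against 25.8% and 20.1%, and central segments 13.9% and 15.2% against 17.2% and 15.0%. EACBE-/- replicate 1 stood away from wild type and replicate 2 did not. The proximal groups did not overlap and differed by -4.52 points, but by -0.591 without EACBE-/- replicate 1, and the distal difference of 2.97 points was 0.114 without it. Both differences were larger in size without EACBE-/- replicate 2. With the Trav array divided at its middle instead, the distal part was 5.47 points higher in EACBE-/- and the proximal part lower by as much.

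Most of the listed distal and central Trav segments are duplicated copies, whose names carry a D or an N after the number. Such copies make up 61 of the 105 V segments that every table lists, 34 D and 27 N, and none of them is in the proximal list. The sources used here do not give how the counting divided near-identical copies. N copies made up 9.76% and 11.0% of joins to the 8 in wild type against 12.9% and 12.4% in EACBE-/-, without overlap, and D copies 22.6% and 19.6% against 29.0% and 21.6%, with overlap. Segments that are not copies went the other way in the outer lists: the 6 in the distal list made up 0.441% and 0.935% of joins to the 8 in wild type against 0.0622% and 0.157% in EACBE-/-, and the 5 in the central list 2.01% and 2.69% against 0.974% and 0.910%. With copies left out, the distal difference was -0.827 points, the central one -1.90 and the proximal one 2.72. Each was opposite in sign to the value with copies. Proximal segments then made up 96.4% and 94.8% of the remaining joins in wild type against 98.2% and 98.4% in EACBE-/-. These shares have a fixed total, so the proximal rise cannot be told apart from the falls of the 6 distal and 5 central segments. Whether copies account for the differences was not tested.

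Relative to overall V and J use, the proximal excess of the 8 segments was smaller in EACBE-/-. The observed share of a V list in joins to the 8 was divided by the share expected from the product of V and J use in the same library, so that 1 means no preference. The expected share includes the 8 segments, whose own share was larger in EACBE-/-, so a move toward 1 is partly built in. Over all Traj, proximal Trav made up 46.6% and 48.6% of joins in wild type against 48.0% and 56.1% in EACBE-/-. Of joins to the 8 they made up 65.2% and 65.8% against 57.0% and 64.9%, as given above. The ratio for proximal Trav was 1.40 and 1.35 in wild type against 1.19 and 1.16 in EACBE-/-. Distal Trav stood at 0.638 and 0.651 against 0.792 and 0.763, and central Trav at 0.673 and 0.684 against 0.882 and 0.854. No list overlapped between genotypes, and every library kept the excess of proximal and the deficit of distal and central partners. The shift was not particular to the 8. With Traj58 to Traj52, proximal Trav stood at 1.58 and 1.47 in wild type against 1.31 and 1.26 in EACBE-/-. With Traj40 to Traj32 it stood at 1.18 and 1.16 against 1.05 and 1.04. Distal and central values were higher in EACBE-/- with both adjacent lists, also without overlap.

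The expected value includes the 3′ joins that were fewer in EACBE-/-. With Traj21 to Traj1 left out, proximal Trav stood at 1.20 and 1.15 against 1.13 and 1.10, distal Trav at 0.750 and 0.785 against 0.841 and 0.828, and central Trav at 0.776 and 0.822 against 0.918 and 0.903. The groups still did not overlap, and the differences were smaller. Among segments that are not copies, over all Traj, proximal Trav stood at 1.09 and 1.09 against 1.01 and 1.02 and distal Trav at 0.138 and 0.228 against 0.481 and 0.377, both without overlap. The central groups overlapped there, at 0.415 and 0.524 against 0.607 and 0.523.

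By segment, 7 of the 8 had a lower proximal value in EACBE-/- without overlap, where 20 of all 43 Traj segments did (46.5%). For distal Trav 7 of the 8 were higher, where 23 of the 43 were (53.5%), and for central Trav 6 of the 8, where 14 of the 43 were (32.6%). Traj49 overlapped for all 3 lists, with proximal values of 1.30 and 1.41 in wild type against 1.31 and 1.20 in EACBE-/-, and Traj44 overlapped for the central list. Traj50 had the highest mean proximal value in wild type, at 1.53 and 1.39, and 1.24 and 1.21 in EACBE-/-. Traj42 had the lowest in EACBE-/-, at 1.08 and 1.12, and was at 1.33 and 1.30 in wild type.

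**Figure D3:**
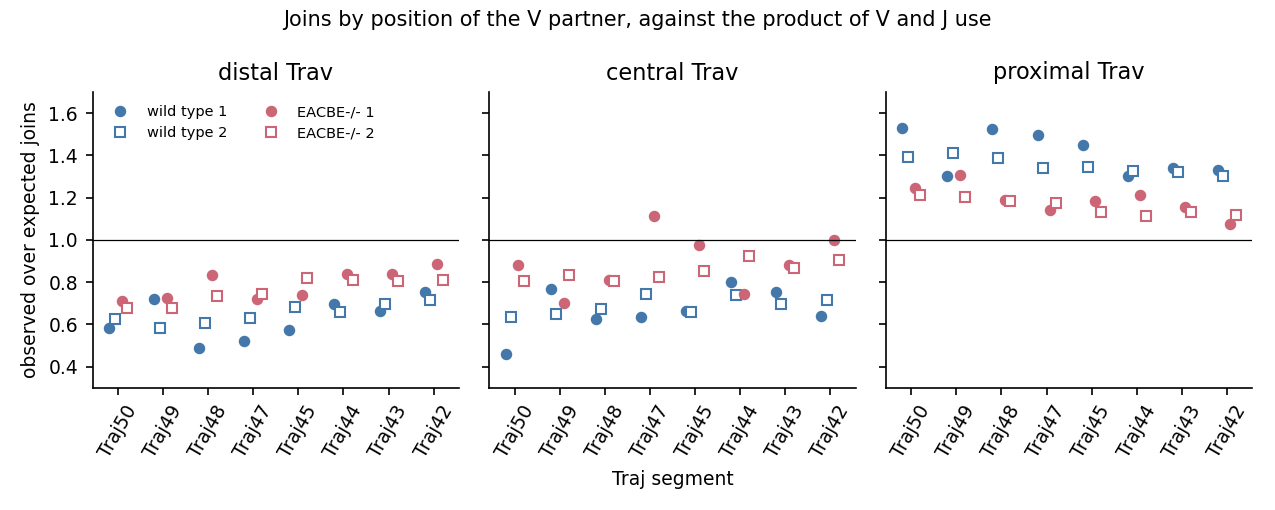
Observed over expected joins (no unit, 1 = product of V and J use) of distal, central and proximal Trav segments with each of the 8 Traj segments, 1 point per library. Proximal values lie above 1 throughout and are lower in EACBE-/- without overlap for all but Traj49, whose libraries overlap. Distal values lie below 1 throughout.

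As shares of all Trav counts, joins of the 8 to each V list were higher in EACBE-/-. Distal joins took 3.98% and 3.49% in wild type against 6.52% and 4.86% in EACBE-/-, a 1.52-fold difference of means. Central joins took 2.66% and 2.77% against 4.34% and 3.64%, or 1.47-fold, and proximal joins 12.5% and 12.0% against 14.4% and 15.7%, or 1.23-fold. None of these groups overlapped. Taken by segment, distal joins were higher without overlap for 6 of the 8 (32.6% of all 43), central joins for 8 (34.9%) and proximal joins for 6 (37.2%). Distal joins of Traj44 and Traj43 were the furthest apart by fold among the 8, at 1.96-fold and 1.92-fold. Distal joins of Traj43 took 0.534% and 0.515% in wild type against 1.11% and 0.911% in EACBE-/-. Proximal joins of Traj42 were the nearest to level, at 2.14% and 1.99% against 2.00% and 2.32%, and overlapped.

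The most used partners over the 4 libraries were proximal segments. Trav4-4-dv10 took 6.47% and 4.53% of joins to the 8 in wild type against 7.11% and 5.80% in EACBE-/-. Trav6-7-dv9 took 4.61% and 6.89% against 3.61% and 6.40%, and Trav21-dv12 took 2.35% and 4.16% against 3.42% and 5.11%. The suffix dv marks V segments that can also join to the delta chain. For these 3 partners the groups overlapped, and the replicates of a genotype differed more than the genotypes did. Trav13-1 took 3.43% and 4.24% against 4.42% and 5.35%, and Trav6-6 took 2.84% and 3.50% against 3.54% and 4.76%. Both were higher without overlap and neither passed in edgeR (log2 changes 0.34 and 0.38, adjusted p = 0.664 and 0.657). Trav4-4-dv10 and Trav6-7-dv9 were among the 3 most used partners of each of the 8 segments. Which of these partners came first differed between libraries: with Traj43, Trav4-4-dv10 took 7.63% and 4.24% in wild type against 8.27% and 6.21% in EACBE-/-, and Trav6-7-dv9 took 5.34% and 6.94% against 2.58% and 6.49%.

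Given a join to one of the 8 segments, no V partner passed the test between genotypes. Of 98 V segments tested in edgeR, 0 passed at an adjusted p of 0.05, 12 had an unadjusted p below 0.05 (12.2%), 6 higher and 6 lower in EACBE-/-, and DESeq2 called 2 (2.04%), Trav17 and Trav3-3, both lower. Both EACBE-/- libraries lay above both wild-type ones for 23 of 105 V segments (21.9%) and below them for 21 (20%). In simulated data of this depth the test recovered 27.8% of 4-fold changes and 1.85% of 1.5-fold changes, so most changes of those sizes would not be called here.

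Trav17, a proximal segment (chromosome 14, 53806639 to 53807115), had the lowest p. It took 2.31% and 1.66% of joins to the 8 in wild type, from 47 and 513 counts, and 0.228% and 0.360% in EACBE-/-, from 11 and 140 counts. The groups were far apart, with a log2 change of -2.68 (SE 0.396, adjusted p = 0.0910 in edgeR). It was low with other Traj segments too, at 1.13% and 0.832% of their joins in wild type against 0.231% and 0.239% in EACBE-/-. The share of Trav17 joins that used one of the 8 was 32.4% and 30.9% in wild type against 25.0% and 32.5% in EACBE-/-, with overlap.

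Trav3-3, also proximal, took 4.76% and 4.38% of joins to the 8 in wild type against 1.12% and 2.01% in EACBE-/- (log2 change -1.52, SE 0.362, adjusted p = 0.173 in edgeR). Here joins to other Traj segments were closer, at 2.28% and 2.38% against 1.63% and 2.17%. The share of Trav3-3 joins that used one of the 8 was 33.0% and 29.2% in wild type against 18.8% and 22.9% in EACBE-/-, without overlap, while the share over all V segments was higher in EACBE-/-. Trav7-2, in the central list, took 1.08% and 1.16% against 0.435% and 0.329%. Trav1, the outermost Trav, took 0.0981% and 0.159% against 0.0207% and 0.0154%, from 2, 49, 1 and 6 counts, so its value rests on few counts. Neither passed in edgeR (log2 changes -1.58 and -2.99, adjusted p = 0.173 for both).

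Trav14d-1, a distal D copy, differed in the other direction. It took 1.03% and 1.03% of joins to the 8 in wild type against 3.48% and 2.08% in EACBE-/- (log2 change 1.43, SE 0.349, adjusted p = 0.173 in edgeR). Its share of other joins was 2.13% and 1.32% in wild type against 3.98% and 2.31% in EACBE-/-, also without overlap. The share of Trav14d-1 joins that used one of the 8 was 10.2% and 14.8% in wild type against 22.8% and 22.4% in EACBE-/-.

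Trav11, the V segment of the invariant natural killer T cell receptor, took 0.441% and 0.480% of joins to the 8 in wild type against 0.622% and 0.581% in EACBE-/- (log2 change 0.37, adjusted p = 0.779 in edgeR). For Trav21-dv12 the log2 change was 0.37 as well, with the same adjusted p from edgeR, but 0.042 without wild-type replicate 1, 0.044 without EACBE-/- replicate 2 and 0.86 without wild-type replicate 2. Trav2 had too few counts to be tested, with 3, 10, 0 and 2.

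D and N copies were then added to the V segment whose name differs only by that letter, a grouping chosen after seeing the data. Names that also differ by a dv suffix stayed apart, so copies named Trav4-4 were not added to Trav4-4-dv10. Of 48 groups, 7 passed in edgeR (14.6%), 2 higher (4.17%) and 5 lower (10.4%). Trav12-1 with its copies took 1.96% and 2.34% of joins to the 8 in wild type against 4.98% and 4.16% in EACBE-/- (log2 change 1.06, SE 0.245, adjusted p = 0.0360 in edgeR). Trav14-1 with its copies took 2.40% and 2.28% against 5.74% and 3.87% (log2 change 1.03, SE 0.278, adjusted p = 0.0491 in edgeR). The 5 that fell were Trav17, Trav3-3, Trav7-2, Trav8-2 and Trav1. No copy was added to Trav17 or Trav1, so their counts were unchanged and only the fit differed. Trav8-2 with its copies took 2.26% and 1.96% in wild type against 1.04% and 0.940% in EACBE-/-. All 7 had groups that did not overlap.

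**Figure D4:**
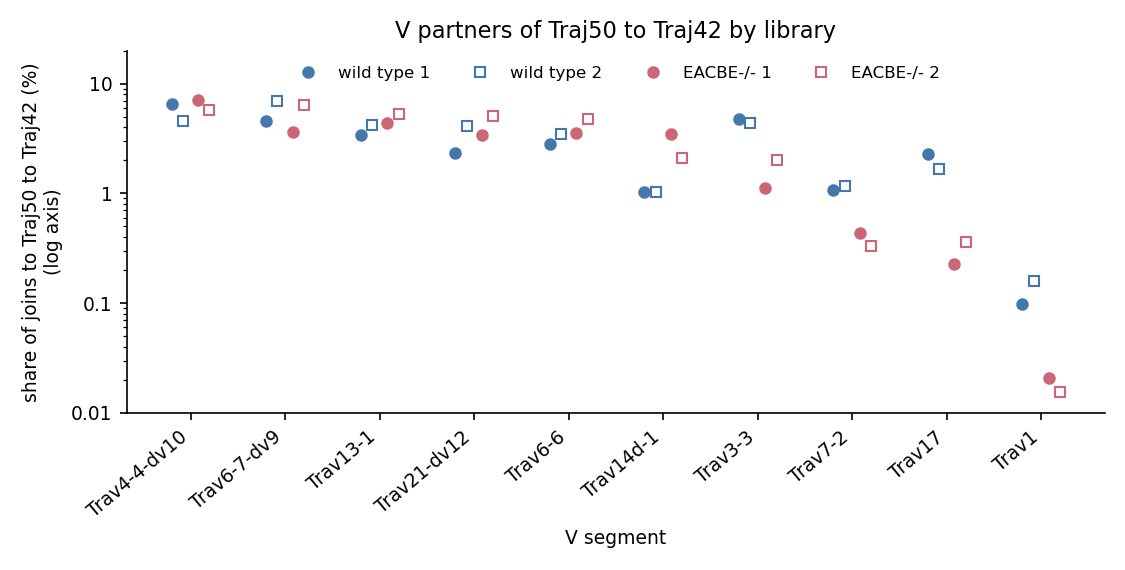
Share of joins to the 8 Traj segments (%, log axis) taken by the 5 most used V partners and by the 5 with the lowest p, 1 point per library. Trav14d-1 lies higher and Trav3-3, Trav7-2, Trav17 and Trav1 lie lower in both EACBE-/- libraries, and none of the 10 passed in edgeR.

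Single V-J pairs were thinly counted. Of 840 possible pairs of the 105 V segments with the 8 Traj segments 825 had a count in some library and 475 had enough to be tested, within 2416 pairs tested over all Traj segments. Of the 475, 5 passed in edgeR (1.05%), 2 higher (0.421%) and 3 lower (0.632%) in EACBE-/-. Of the 2416, 79 passed (3.27%), 8 higher (0.331%) and 71 lower (2.94%). The median log2 change was 0.45 over the 475 pairs and 0.09 over all 2416. DESeq2 gave 434 of the 475 an adjusted p and called 0 of them. Of the 475, 23 had an unadjusted p below 0.05 in DESeq2, and the share over all pairs is not given here.

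The pair of Trav12-1 with Traj43 had 2 and 58 counts in wild type against 26 and 178 in EACBE-/-, or 0.0187% and 0.0336% of the table against 0.136% and 0.109% (log2 change 1.98, SE 0.521, adjusted p = 0.0270 in edgeR). It passed only with wild-type replicate 1 left out, of the 4 libraries left out in turn. The pair of Trav14d-1 with Traj44 had 2 and 17 counts against 20 and 61 (log2 change 2.49, SE 0.725, adjusted p = 0.0497 in edgeR), and lost its call in 3 of those 4 fits. Both pairs join a Traj segment that rose to a V partner whose share of joins to the 8 was higher in both EACBE-/- libraries. The counts of each pair are part of both of those totals, so this adds no separate support.

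The 3 pairs that fell had few EACBE-/- counts. Trav17 with Traj50 had 8 and 70 counts in wild type against 1 and 15 in EACBE-/- (log2 change -2.60, adjusted p = 0.0370 in edgeR). Trav17 with Traj49 had 8 and 103 against 2 and 24 (log2 change -2.24, adjusted p = 0.0448 in edgeR). Trav3d-3, the D copy of Trav3-3, had 17 and 62 counts with Traj45 in wild type against 2 and 25 in EACBE-/- (log2 change -2.47, adjusted p = 0.0488 in edgeR). Its wild-type libraries were far apart, at 0.159% and 0.0360% of the table. These 3 pairs lost their calls whichever library was left out.

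The breadth of V partners was similar between genotypes. The inverse Simpson number, which gives the number of equally used V partners that would be as diverse, was 42.7 and 41.7 in wild type against 43.0 and 37.9 in EACBE-/- for the 8 segments together. The groups overlapped, and the difference of -1.74 was 0.784 without EACBE-/- replicate 2. At an equal depth of 2039 counts, 98 and 98.4 V partners were expected in wild type against 96.2 and 94.7 in EACBE-/-, which did not overlap. Traj49 was the 1 member whose inverse Simpson numbers did not overlap, at 44.6 and 37.8 in wild type against 35.4 and 33.6 in EACBE-/-, a pattern seen in 3 of the 43 Traj segments (6.98%). Its wild-type libraries differed from each other by more than the nearest wild-type and EACBE-/- libraries did.

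The V partner profiles of the 8 were alike. Distance between 2 profiles was the percent of joins that would have to move to another V segment to make them equal, over the mean of the 4 libraries. Over the 28 pairs of the 8 segments it ran from 10.1% to 18.3%, with a median of 13.4%, and the most distant pair was Traj50 with Traj44. Of the segments outside the set, the nearest to the 8 summed were Traj40 at 11.3%, Traj52 at 11.8% and Traj37 at 14.6%. Traj40 and Traj52 are the listed segments that flank the set on either side. The 8 themselves were at 7.64% to 11.6%, where each is part of the sum it was compared with. Counting error adds to these distances, most for the least counted segments.

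**Figure D5:**
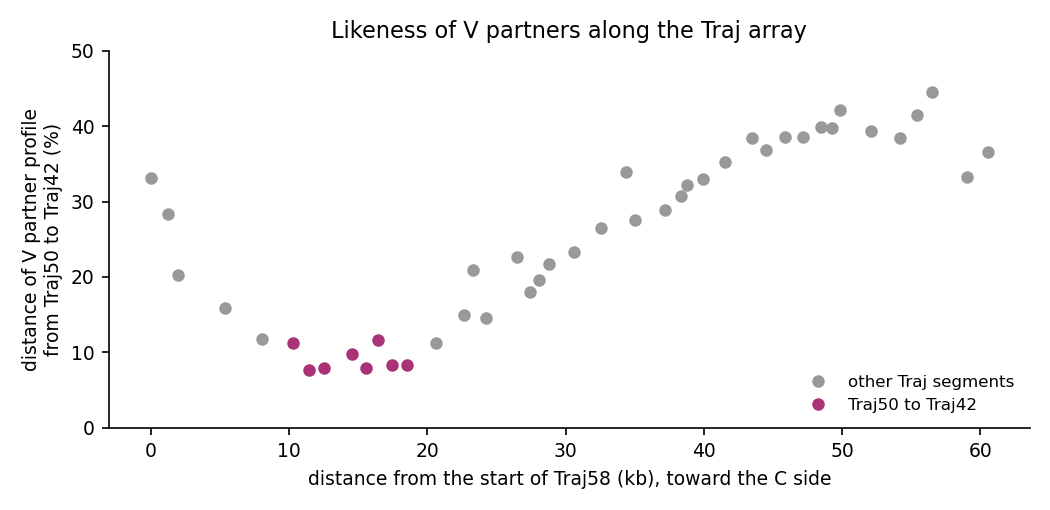
Distance (%) of the V partner profile of each of the 43 Traj segments from that of the 8 summed, mean of 4 libraries, against distance from the start of Traj58 (kb). The 8 segments lie at 7.64% to 11.6%, with Traj40 outside the set at 11.3% and so nearer than Traj44, and values reach 33.1% at Traj58 and 44.6% at Traj5.

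Between libraries, distances of the profile of the 8 summed within a genotype lay inside the range of those between genotypes. The distance was 20.1% between the wild-type libraries and 17.7% between the EACBE-/- libraries. The nearest libraries of all were the replicate 2 libraries of the 2 genotypes, at 16.3%, and across genotypes the distance ran up to 26.0%.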

How the data were processed

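For every Tcra library the authors deposited whole-number counts, V segments by Traj segments. Per the labels' protocols, libraries were made by template-switching 5′ RACE from thymocyte RNA. Which tool assigned segments is not given in the sources. The submitters' processing notes name mm10 and, among tools for all assays of the series, cutadapt 0.4.4 and Bowtie2 2.3.4.3, without saying which step used them. All 111 V and 43 Traj names matched a RefSeq GRCm38.p6 symbol. The other data of the series were not used here.

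Counts per Traj segment, per V partner of the 8 segments and per V-J pair were tested with edgeR 4.0.16 (glmQLFit, glmQLFTest, R 4.3.3), with table totals (for V partners, totals of joins to the 8) as library sizes and filterByExpr at a minimum count of 10 and total of 15. P-values were adjusted by Benjamini-Hochberg over all features of each fit, with a threshold of 0.05. Tests of V segments used the 105 listed in all 4 tables. Sums per Traj segment used all V rows. Tested on simulated data with all features of each fit, 4-fold and 1.5-fold changes were recovered for 100% and 30% of Traj segments, 27.8% and 1.85% of V partners and 29% and 2% of pairs. Results were recomputed with TMM factors, with DESeq2 1.42.0, without the filter, leaving out each library, with replicate number as a block, and with other library sizes, other list bounds, the V rows used and another diversity measure. Chosen after seeing the data were totals over Traj58 to Traj52, copies summed or left out, and the block combined with TMM factors.

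All 8 segments are named. Named V partners are those called or, with fewer than 5 called, the 5 lowest p, plus the 5 most used and Trav1, Trav2, Trav11, Trav17 and Trav21-dv12. Named pairs are those called whose groups did not overlap. Named like segments are the 3 nearest outside the set. The members and lists were chosen with earlier results of these data known. Trav8-2 and the copy sums are named after their values were seen. Other steps used Python 3.11.15 with numpy 2.4.6, pandas 2.3.3, scipy 1.17.1 and matplotlib 3.10.9.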

Additional observations from a re-analysis of the deposited data

How the results depend on the processing

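The summed share of the 8 segments was higher in EACBE-/- under each alternative run, by 5.64 to 6.46 points with a library left out and by 4.95 for the 6 inner segments. Calls among the 43 Traj segments numbered 12, and 6 to 13 with a library left out. Calls among the 8 numbered 3, and 1 to 2 with a library left out, 1 with totals outside Traj21 to Traj1 (median log2 change 0.16) and 0 with totals over Traj58 to Traj52 (median 0.31, against 0.37 with table totals). Of 96 alternative values of a single one of the 8, 1 changed sign, the -0.00324 of Traj42 with totals outside Traj21 to Traj1. With D and N copies left out, the distal, central and proximal differences were -0.827, -1.90 and 2.72 points. With a library left out, the difference in inverse Simpson number ran from -4.26 to 0.784. For V partners, DESeq2 called 2, copies summed 7, and fits with a library left out 0 to 2. With a library left out, the log2 change of Trav4-4-dv10 ran from -0.00711 (wild-type replicate 2) to 0.51 (wild-type replicate 1). That of Trav21-dv12 ran from 0.042 to 0.86. That of Trav6-7-dv9 ran from -0.68 (EACBE-/- replicate 2) to 0.14 (EACBE-/- replicate 1), and was 0.13 with wild-type replicate 2 left out. Of all V-J pairs, DESeq2 called 18 and no filter 129, with 0 to 150 when a library was left out. Of pairs with the 8 segments, TMM factors called 10, DESeq2 0 and no filter 9, with 0 to 6 when a library was left out. The cause of these shifts was not tested.

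Replicate numbers are shared between genotypes, and the labels do not say that a number marks a litter or day, so the samples were not treated as paired. Same-numbered libraries did deviate together (correlation of deviations 0.787 over 43 Traj segments and 0.747 over 55 V partners). With the number as a block, 32 of 43 Traj segments (74.4%) were called, 44.2% higher and 30.2% lower. All 8 described here were among those higher. With TMM factors added, 33 of the 43 and all 8 were called. The block called 715 of the 2416 V-J pairs tested and 146 of the 475 with the 8 segments, which are similar shares. It called 0 V partners. Depth limits all of this most in wild-type replicate 1, where 3 counts are 0.0281% of the table.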

Other observations

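The 5 Trdv segments that replicate 2 alone listed were joined to the 8 Traj segments in 1110 wild-type and 1160 EACBE-/- counts. Over all Traj segments they made up 2.01% and 1.89% of counts, so their share among joins to the 8 (3.47% and 2.89%) was the larger one in both libraries. With 1 library per genotype there is no replicate check.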
